A study of Mus musculus with 24 samples.

Results

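Cytosolic ribosomal protein genes were followed in cultured mouse ovarian surface epithelial cells (mOSE), the layer that covers the ovary. The members were every gene in the deposited expression tables whose symbol begins with Rps or Rpl followed by a number and at most a short suffix, plus Rpsa, Rplp0, Rplp1 and Rplp2, chosen by name and not by any measured value. This gave 89 of 35688 genes, 36 of the small ribosomal subunit and 53 of the large, of which 83 are annotated as protein-coding. Poly(A)-selected RNA was measured in 24 libraries, 8 groups of 3, from 3 experiments. In the first, the line m1102 was grown as monolayers or as spheroids on low-attachment plates, each untreated or with TGFB1 (transforming growth factor beta 1) at 10 ng/mL, which spheroid cells received for 4 days before they were moved to those plates. That schedule is given for spheroids only, so with TGFB1 a difference between cultures cannot be told apart from one in schedule. In the second experiment, m1102 cells carried a lentiviral Snail construct or the lentiviral control vector WPI. In the third, the line mOSE_BRCA1_fl, taken from mice with floxed Brca1, was infected with an adenovirus for Cre (labelled ko) or for GFP (labelled wt), so the controls carry the floxed alleles too. The ages of the mice are not stated. The 6 monolayer titles, and no spheroid title, carry a mark for re-analysis, so a difference between cultures cannot be told apart from one between sets of libraries. Whether replicates were grown as separate cultures is not stated, and a p-value covers only the spread between libraries, which may be technical.

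A cytosolic ribosome joins a small subunit, which reads the mRNA, to a large subunit, which makes the peptide bond. Its proteins are made in matched amounts from single-copy genes scattered over the genome, and a surplus protein is usually degraded. Most of their mRNAs are TOP mRNAs: they begin with a C and a run of pyrimidines, through which growth signals acting on the kinase complex mTORC1 control their translation. Translation itself was not measured here, only RNA level. The members lie on 19 chromosomes and are short, with a median transcript length of 906 bases (383 to 5179) against 2683 for all protein-coding genes. Reverse-transcribed copies of these mRNAs are numerous in the mouse genome: 74 members had 556 near-identical annotated copies between them, 539 of them pseudogenes, with up to 57 for one gene (Rpl21).

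The start sites of 12 members named below are printed here to let the presence or absence of the TOP run be seen beside their RNA values. Other named members with an entry, with and without a run, are not printed. Each is 30 bases of the coding strand, 15 before and 15 after the start in RefSeq (GRCm38.p6), written 5′ to 3′. Capitals mark every stretch that fits the search: at least 5 pyrimidines (C or T, coding strand only) read from a C, whatever base comes before it. That C lies among the 10 bases before the annotated start or the first 10 bases from it on. Rps27 and Rps27l each show a pair of such stretches. RefSeq lists 3 starts for Rpl35a and 2 for Rps27l, of which 1 each holds a run and is shown.
Rps27 (chr3:90213634-90213663, minus strand): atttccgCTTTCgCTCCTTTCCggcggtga
Rps27l (chr9:66946071-66946100, plus strand): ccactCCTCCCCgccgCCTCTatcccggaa
Rps6 (chr4:86857353-86857382, minus strand): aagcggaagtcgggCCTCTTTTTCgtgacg
Rps2 (chr17:24720048-24720077, plus strand): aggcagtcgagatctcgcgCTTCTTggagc
Rpsa (chr9:120127751-120127780, plus strand): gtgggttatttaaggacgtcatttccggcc
Rpl13a (chr7:45128731-45128760, minus strand): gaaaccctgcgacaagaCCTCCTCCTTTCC
Rpl35a (chr16:33056467-33056496, plus strand): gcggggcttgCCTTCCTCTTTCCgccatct
Rpl41 (chr10:128549154-128549183, minus strand): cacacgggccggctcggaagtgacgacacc
Rpl5 (chr5:107900513-107900542, plus strand): tctcacgtcgcttgcgtgctggtggtgcta
Rpl12 (chr2:32961697-32961726, plus strand): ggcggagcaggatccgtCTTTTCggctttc
Rplp0 (chr5:115559452-115559481, plus strand): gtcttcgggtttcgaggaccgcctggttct
Rplp2 (chr7:141447636-141447665, plus strand): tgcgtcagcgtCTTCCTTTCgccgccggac
Of the 64 members with a RefSeq start, 40 (62.5%) held such a run, against 9007 of 27025 genes (33.3%). Only 60 of the 82 members tested in the monolayer and spheroid table (73.2%) had an entry, so no check of this feature against the changes was made. An annotated start can be off by some bases, and a window with no run says only that these letters are not there.

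The deposited values are TPM that the authors scaled with 1 factor per library, called signal here, and each experiment has its own table. Column sums ranged from 955433 to 1166749 for monolayers and spheroids, from 983449 to 1021026 for Snail and its vector and from 796668 to 1810667 for BRCA1. The depth of the libraries is not known. Snai1 signal was 13.7, 10.1 and 9.81 with the vector and 234, 195 and 193 with Snail. Brca1 signal was 4.27, 12.3 and 3.66 in the libraries labelled wt and 5.34, 11.1 and 4.09 in those labelled ko. The BRCA1 ranges overlap, and a whole-gene value does not check a deletion of part of the gene. Of 12 ovarian surface epithelial markers, 8 to 11 had a group mean of at least 1 in each group. Their summed signal was 1970 to 2052 in untreated monolayers, 1012 to 1338 in TGFB1 monolayers, 298 to 471 in untreated spheroids and 243 to 454 in TGFB1 spheroids. Summed endothelial markers reached 26.3 to 52.4 in TGFB1 spheroids, mostly Cdh5, and at most 7.58 in the other monolayer and spheroid groups. Their part in the results was not tested.

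The share of the column sum held by ribosomal protein mRNAs was lower with TGFB1 than without it in both cultures, and its group mean was lowest in TGFB1 spheroids. In untreated monolayers the share was 10.5%, 10.0% and 10.2%, and in TGFB1 monolayers 9.60%, 9.07% and 9.14%. Untreated spheroids had 10.4%, 11.1% and 11.6%, and TGFB1 spheroids 7.69%, 8.48% and 9.13%. No TGFB1 library overlapped the untreated libraries of its culture, while the TGFB1 spheroid and TGFB1 monolayer libraries overlapped. As group means the share was lower by 0.977 percentage points with TGFB1 in monolayers and by 2.58 in spheroids. Other genes with transcripts of at most 1000 bases also held less with TGFB1 in monolayers. They held 11.4%, 11.1% and 11.5% untreated and 10.3%, 10.3% and 10.4% with TGFB1. In spheroids the shares of those genes overlapped, at 9.02%, 9.20% and 9.41% untreated and 8.92%, 9.13% and 9.45% with TGFB1. Whether the members' lower share in monolayers is particular to them was not tested. Mitochondrially encoded RNA took 7.24%, 13.9% and 12.1% of the TGFB1 spheroid libraries and 6.60% to 8.68% of the other 9, and with it set aside the members' share was 8.29%, 9.84% and 10.4% in TGFB1 spheroids against 11.4%, 12.01% and 12.6% in untreated ones. In this bulk RNA, fewer cells of a type and less RNA per cell cannot be told apart. The small subunit held a mean share of 5.01% ± 0.315 (SD, n = 3) in untreated and 3.69% ± 0.343 in TGFB1 spheroids, and the large subunit 5.997% ± 0.292 and 4.74% ± 0.383. These shares are given without a test.

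**Figure D1:**
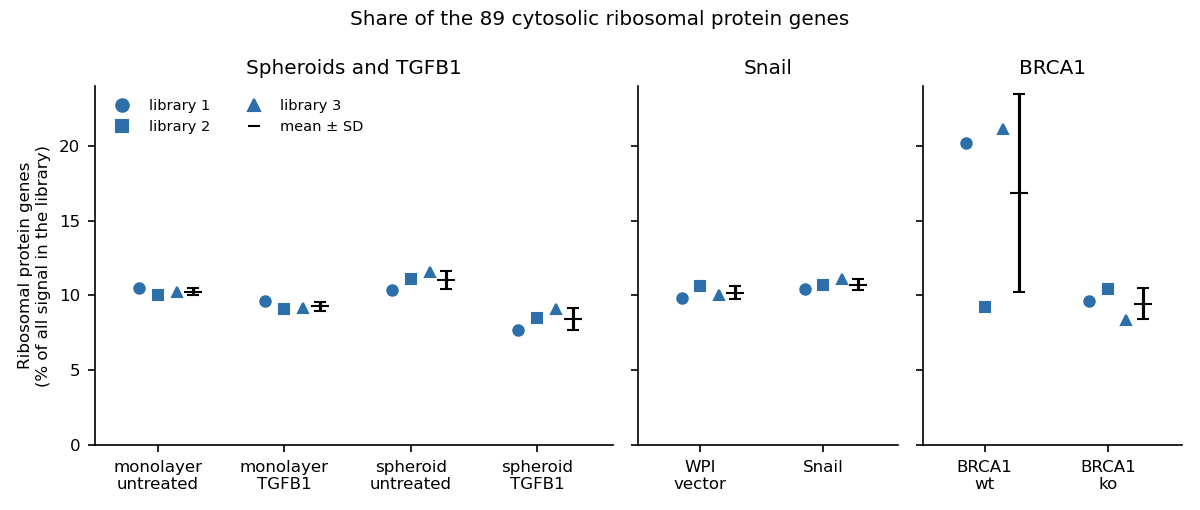
Share of the summed signal held by the 89 ribosomal protein genes (y axis, percent) in each library (points) of the 8 groups, with the mean and SD of each group of 3, 1 panel per deposited table. TGFB1 spheroids (7.69% to 9.13%) have the lowest mean in the first panel but overlap TGFB1 monolayers (9.07% to 9.60%), the Snail and vector groups overlap, and 2 of the 3 BRCA1 wt libraries (20.2% and 21.1%) stand above all others.

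Most members were abundant, and a small set of annotated pseudogenes and paralogs was hardly present. Over monolayers and spheroids, 80 members had a mean signal of at least 10 and 46 of at least 1000, with a median of 1150.0 over those 80. Among the highest were Rps27 at 3875, Rpl13a at 3306, Rplp1 at 3207 and Rpl41 at 2822. The Snail table is led by Rps27 at 4432, and the BRCA1 table is led by Rplp1 at 6290.1, Rpl41 at 5516 and Rps21 at 5269. The other 9 members were under 2, among them Rps3a2, Rps3a3, Rpl6l and Rpl32l, and Rps12l1 was at 0 throughout. All of these named here are annotated as processed pseudogenes. Rpl3l, a striated muscle form of Rpl3, averaged 0.0988 against 142 for Rpl3, and Rpl39l, known from the testis, 0.0403 against 1136 for Rpl39. Rpl10l, a testis form of Rpl10, and Rps4l, an annotated pseudogene related to Rps4x, were listed at 0 in all 12 libraries. The paralogs that were present, Rps27l, Rpl22l1 and Rpl7l1, averaged 819, 432 and 66.4. Across the 80 members the coefficient of variation over all libraries had a median of 13.4% over monolayers and spheroids, 5.62% over Snail and vector and 82.1% over the BRCA1 experiment.

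For some members most of the signal stood in the rows of their near-identical copies, and how the authors' quantification divided shared reads between gene and copies is uncertain. Rps2, a core small subunit protein, averaged 19.5 in its own row and 2415 over its copies. The own row of Rpl5 held 46.6 against 1628 in copies, that of Rpl12 48.4 against 1429 and that of Rps18 54.0 against 2104. Of 73 members with copies and a summed value of at least 10, the own row held over 95% of the sum in 42, under 50% in 19 and under 10% in 7. Rps2 was divided differently in the BRCA1 table, with 1546 in its own row and 2125 in copies. Changes with copies added are given for some of the members whose call this alters, and otherwise as counts of calls kept. With copies, the group mean share of the signal was 13.6% in untreated monolayers, 12.3% in TGFB1 monolayers, 14.5% in untreated spheroids and 11.1% in TGFB1 spheroids.

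**Figure D2:**
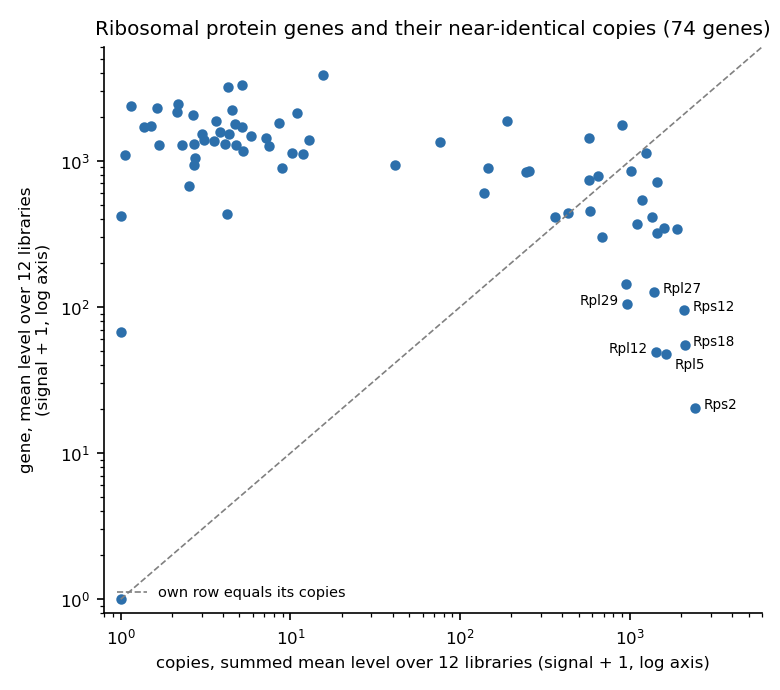
Mean level over 12 libraries of each member's own row (y axis, signal + 1, log scale) against the summed level of its near-identical copies (x axis, signal + 1, log scale), 1 point for each of 74 genes, with a dashed line where both are equal. The 7 labelled genes (Rps2, Rps18, Rpl5, Rpl12, Rps12, Rpl27 and Rpl29) have under 10% of the sum in their own row and lie far below the line.

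Ribosomal protein genes passed the test in both directions between untreated spheroids and monolayers, with a median near 0. In spheroids, 15 of 82 tested members rose (18.3%; 27.6% of all genes tested) and 14 fell (17.1%; 27.7%), and the median log2 difference was 0.04 against 0.01 for all genes. The SD of log2 differences was 0.34 over members and 1.01 over all genes, and 1 member, Rps27l, changed by more than 2-fold. The 3 libraries of each group did not overlap in 33 members that were higher in spheroids (40.2%; 32.8% of all genes) and 20 that were lower (24.4%; 32.5%). With every column rescaled to the same sum, 29 members rose (29.4% of all genes). Both directions held members of both subunits: 4 rose and 4 fell among 34 of the small subunit, and 11 rose and 10 fell among 48 of the large.

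Among small subunit genes, Rps27l, a paralog of Rps27 known as a p53 target, was 1164, 1104 and 1215 in untreated monolayers and 512, 535 and 525 in untreated spheroids (log2 difference -1.15 ± 0.09 SE, adjusted p = 2.66e-06). Its libraries did not overlap, and Rps27l has no annotated near-identical copy. Rpsa, which also has a form that acts as a laminin receptor, went from 2090.0, 1930.2 and 2081 to 1022, 1121 and 1315 (log2 difference -0.83 ± 0.11 SE, adjusted p = 0.000127). Every spheroid library was below every monolayer library. The parent gene Rps27 was 5063, 5177 and 5117 in monolayers and 3786, 4309 and 4972 in spheroids, with a difference of -0.24 ± 0.14 SE on the log2 scale, adjusted p = 0.172, which did not pass the test. Rps2 had a difference of -0.73 ± 0.18 SE on the log2 scale, adjusted p = 0.00594, and with its copies -1.09 (adjusted p = 2.81e-05). Rps6, the subunit's target of the S6 kinases, was higher in spheroids, at 1076, 1237 and 1136 against 801, 808 and 818 (log2 difference 0.50 ± 0.11 SE, adjusted p = 0.00256). Rps3a1 (log2 difference 0.46), Rps3 (0.33) and Rps4x (0.24), all core small subunit proteins, rose as well, and Rps12 (-0.41) fell.

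Among large subunit genes, Rpl41, which encodes the smallest ribosomal protein, was 3601, 3453 and 3590.3 in monolayers and 2078, 2154 and 2121 in spheroids (log2 difference -0.74 ± 0.11 SE, adjusted p = 0.000233), with no overlap. The 3 genes of the P stalk, the arm that recruits elongation factors, were all lower on average. Rplp0, its base, was 2095, 2044 and 2132 in monolayers against 1422, 1468 and 1815 in spheroids (log2 difference -0.42 ± 0.11 SE, adjusted p = 0.00670) and Rplp1 was 3915, 3669 and 3905 in monolayers against 2636, 2891 and 3265 in spheroids (-0.39 ± 0.12 SE, adjusted p = 0.0169). Neither gene had overlapping groups. Rplp2, at 1546, 1421 and 1478 in monolayers against 1193, 1288 and 1350.5 in spheroids, did not pass the test (log2 difference -0.22 ± 0.12 SE, adjusted p = 0.141). The largest increases were in Rpl10, which joins the large subunit late and completes the peptidyl transferase region, Rpl17, beside the peptide exit tunnel, and Rpl13a. Rpl10 was 741, 764 and 766 in monolayers and 1020.0, 928 and 1290.2 in spheroids (log2 difference 0.50 ± 0.12 SE, adjusted p = 0.00526). Rpl17 was 1281, 1217 and 1279 in monolayers against 1708, 1842 and 1771 in spheroids (log2 difference 0.49 ± 0.11 SE, adjusted p = 0.00249), and Rpl13a 2954, 2809 and 2978 against 3669, 4019.5 and 4648 (0.49 ± 0.11 SE, adjusted p = 0.00308). No spheroid library of these 3 genes overlapped a monolayer library. Of the parent and paralog pairs, Rpl7l1 fell (log2 difference -0.45 ± 0.09 SE, adjusted p = 0.00116) while Rpl7 differed by -0.01 (adjusted p = 0.940). Rpl22l1, a paralog of Rpl22, differed by -0.10 (adjusted p = 0.336) and Rpl22 by 0.13 (adjusted p = 0.317).

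Rpl27 and Rpl5, both of the large subunit, depended on their copies. Rpl27 had 161, 140.1 and 156 in monolayers and 78.0, 86.8 and 75.5 in spheroids in its own row (log2 difference -0.92 ± 0.14 SE, adjusted p = 0.000211). With copies added the difference of Rpl27 shrank to -0.38 (adjusted p = 0.0157). Rpl5, which with Rpl11 binds Mdm2 when ribosome assembly is disturbed, fell in its own row (log2 difference -0.26 ± 0.07 SE, adjusted p = 0.0108). Its copies held 1382, 1408 and 1445 in monolayers and 2056, 2093 and 2085 in spheroids, and own row and copies together were higher in spheroids (log2 difference 0.53, adjusted p = 0.00320). The direction for Rpl5 thus turned when its copies were added, and how reads were divided between them was not tested. Of the 26 called members that have copies, 23 kept their direction and call with copies added, and of all 29 called members 20 kept their call whichever library was left out.

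**Figure D3:**
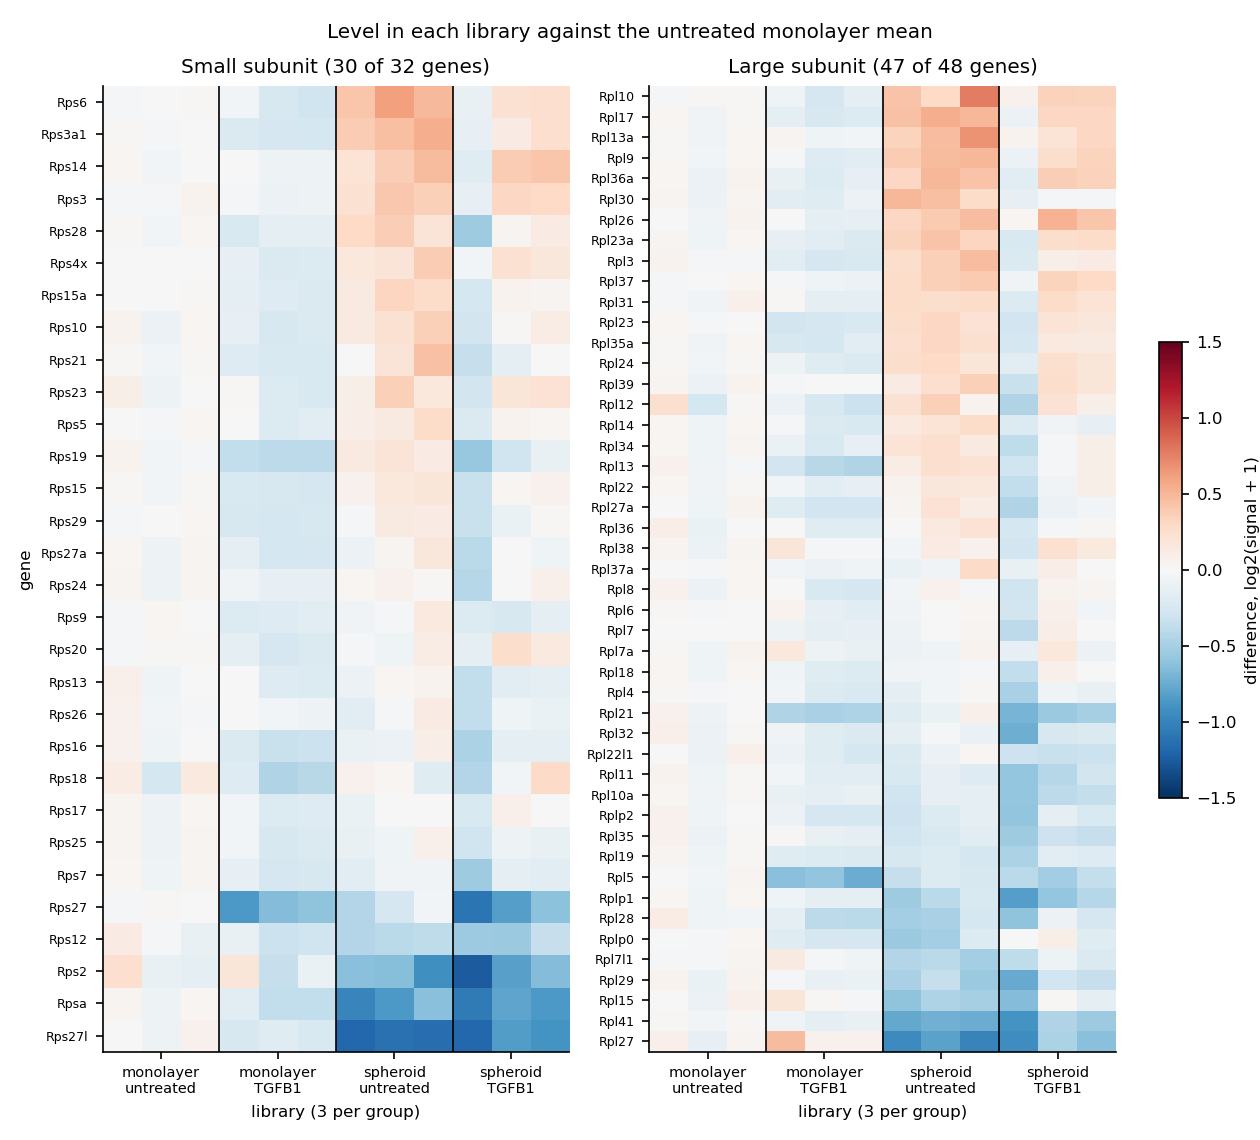
Difference of each library from the mean of untreated monolayers (colour, log2 of signal + 1) for 30 of the 32 small subunit and 47 of the 48 large subunit members with a mean signal of at least 10 (rows) in 12 libraries (columns). Rps27l, Rpsa and Rpl41 are low in all 6 spheroid libraries, and most rows are lower in TGFB1 spheroids than in untreated spheroids.

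With TGFB1 in monolayers, limma called 0 of 82 members as higher (9.12% of all genes tested) and 5 as lower (6.10%; 7.79%): Rps27, Rpl5, Rpl21, Rps19 and Rpl13. The differences were small and mostly negative: 77 of 82 members were below 0, with a median of -0.16 on the log2 scale against 0.01 for all genes and an SD of 0.14 against 0.50. The median of 724 other genes with transcripts of at most 1000 bases was -0.08. The 3 TGFB1 libraries lay below all 3 untreated ones in 46 members (56.1%; 22.1% of all genes) and above them in 0 (25.4% of all genes). At an unadjusted p under 0.05 there were 18 members (30.8% of all genes), and in a fit of these 6 libraries alone 29 fell (14.7% of all genes).

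Rps27 stood out in size, with 5063, 5177 and 5117 in untreated monolayers and 2828, 3259 and 3362 with TGFB1 (log2 difference -0.70 ± 0.14 SE, adjusted p = 0.00744). The ranges were far apart. Rpl21, of the large subunit, was 1043, 940.5 and 1002 untreated against 730.1, 708 and 721 with TGFB1 (log2 difference -0.47 ± 0.09 SE, adjusted p = 0.00533). Rps19, the gene most often mutated in Diamond-Blackfan anaemia, was 2328, 2170.1 and 2212 against 1731, 1703 and 1703 (log2 difference -0.38 ± 0.11 SE, adjusted p = 0.0349), a call that was lost whichever of the 6 libraries was left out (largest adjusted p = 0.116). Rpl13 was 1968, 1809 and 1863 against 1548, 1403 and 1379 (log2 difference -0.38 ± 0.11 SE, adjusted p = 0.0323), with a call in 1 of 6 such fits. The groups were separate for Rps19 and Rpl13. The own row of Rpl5 was 58.5, 56.4 and 59.9 untreated against 37.5, 38.3 and 34.5 with TGFB1 (log2 difference -0.65 ± 0.07 SE, adjusted p = 0.000370), but own row and copies together differed by -0.20 (adjusted p = 0.296). Rpsa (log2 difference -0.30, adjusted p = 0.0949), Rplp0 (-0.23, 0.182), Rplp1 (-0.11, 0.586) and Rps27l (-0.22, 0.133) did not pass the test.

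In spheroids, 16 members fell with TGFB1 (19.5%; 16.8% of all genes tested) and 1 rose (1.22%; 18.8%). The median of the 82 members was -0.20, with 73 below 0. The groups were separate, TGFB1 below, in 33 members (40.2%; 20.5% of all genes), and TGFB1 above in 2 (23.4% of all genes). TGFB1 spheroid columns summed to 1020096 to 1166749 and untreated ones to 955433 to 959545. With equal sums 61 members fell (27.8% of all genes) and 0 rose, with a median of -0.38 against -0.16 for all genes. The count also moved with single libraries, from 8 without untreated spheroid 2 (12.1% of all genes) to 25 without TGFB1 spheroid 3 (17% of all genes). In a fit of these 6 libraries alone 2 fell (9.52% of all genes), Rpl21 and Rpl30. The 16 were 7 of 34 small subunit members and 9 of 48 large subunit members.

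The members that fell most in spheroids included 3 of the 5 that fell in monolayers, which are 3 of the 16. The share of all genes that fell in both cultures was not counted. Rps27 was 3786, 4309 and 4972 in untreated spheroids and 2404, 2881 and 3338 with TGFB1 (log2 difference -0.60 ± 0.14 SE, adjusted p = 0.00745). Rpl21 was 875, 927 and 1048 against 612, 675 and 703 (log2 difference -0.52 ± 0.09 SE, adjusted p = 0.00132), and Rps19 2456, 2566 and 2434 against 1512, 1824 and 2076 (-0.47 ± 0.11 SE, adjusted p = 0.00664). Untreated and TGFB1 libraries did not overlap for these 3 genes. Rpl30, of the large subunit, was 557, 538 and 476 untreated against 362, 387 and 388 with TGFB1 (log2 difference -0.46 ± 0.08 SE, adjusted p = 0.00124). Rps6 was 1076, 1237 and 1136 against 751, 946 and 965 (log2 difference -0.38 ± 0.11 SE, adjusted p = 0.0207). The TGFB1 libraries were all below the untreated ones for both genes. Smaller decreases were called among others in Rps3a1 (log2 difference -0.38), Rps21 (-0.38), Rpl3 (-0.36), Rpl14 (-0.33), Rpl27a (-0.32), Rpl17 (-0.31), Rps15a (-0.30), Rpl10a (-0.25), Rpl11 (-0.25) and Rpl22l1 (-0.22). Of the 16 called members with copies, higher or lower, 14 kept their call with copies added. Rpl27a held 17.8% of the sum of gene and copies in its own row. With copies it was 2127, 2329 and 2223 untreated against 1528, 2115 and 2164.5 with TGFB1, which overlap. Of all 17 called members, 8 kept their call whichever library was left out.

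Rplp0 moved the other way. It was 1422, 1468 and 1815 in untreated spheroids and 2089, 2224 and 1838 in TGFB1 spheroids (log2 difference 0.39 ± 0.11 SE, adjusted p = 0.0172), and 2095, 2044 and 2132 against 1837, 1756 and 1758 in monolayers. All 3 TGFB1 spheroid libraries lay above all 3 untreated ones, while in monolayers they lay below. Its partners Rplp1 (log2 difference -0.22, adjusted p = 0.177) and Rplp2 (-0.10, 0.523) did not pass the test in spheroids. The Rplp0 call was lost without untreated spheroid 1 or 2 or TGFB1 spheroid 2. With equal column sums the Rplp0 difference was 0.20 (adjusted p = 0.143). Tested directly, the TGFB1 effect differed between cultures in 2 of 82 members, both in the positive direction (2.44%; 8.72% of all genes), and in 0 in the negative direction (7.11%). Rplp0 had an effect in spheroids minus that in monolayers of 0.62 ± 0.15 SE on the log2 scale, adjusted p = 0.0207, and 0.39 (adjusted p = 0.0831) with equal sums. Rpl5 had 0.49 ± 0.10 SE, adjusted p = 0.0109, and -0.04 (adjusted p = 0.895) with its copies. With equal sums 7 members had a more negative effect in spheroids (14.2% of all genes). For Rps27 the difference in effect was 0.10 (adjusted p = 0.781). In these tests culture cannot be told apart from the TGFB1 schedule, which is given for spheroids only.

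Between spheroids and monolayers that had both received TGFB1, 12 members were higher in spheroids (14.6%; 25.3% of all genes tested) and 13 lower (15.9%; 26.5%). Rpl27 (log2 difference -0.88; with copies -0.26, adjusted p = 0.0777), Rps2 (-0.82), Rps27l (-0.75) and Rpsa (-0.60) led those lower. Rps27l was 983, 1023 and 988 in TGFB1 monolayers and 511, 650.0 and 622 in TGFB1 spheroids (log2 difference -0.75 ± 0.09 SE, adjusted p = 5.04e-05), and Rpsa 1812, 1568 and 1568 against 971, 1169.8 and 1119 (-0.60 ± 0.11 SE, adjusted p = 0.00113). All spheroid libraries were below all monolayer libraries for both. Among the largest increases were Rpl26 (log2 difference 0.40), Rpl10 (0.40) and Rpl17 (0.38). With equal sums 0 members rose (17.9% of all genes) and 23 fell (36.3%), and without TGFB1 spheroid 1 it was 30 that rose (24.5%). Of the 25 calls, 13 were kept whichever library was left out. Of the 23 called members with copies, 19 kept their call with copies added. Across the untreated and TGFB1 comparisons, 10 members fell in both (of 14 and 13) and 8 rose in both (of 15 and 12). The share of all genes called in both was not counted, so this overlap is not set apart from that of genes in general. Rpl5 was called in opposite directions in its own row.

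**Figure D4:**
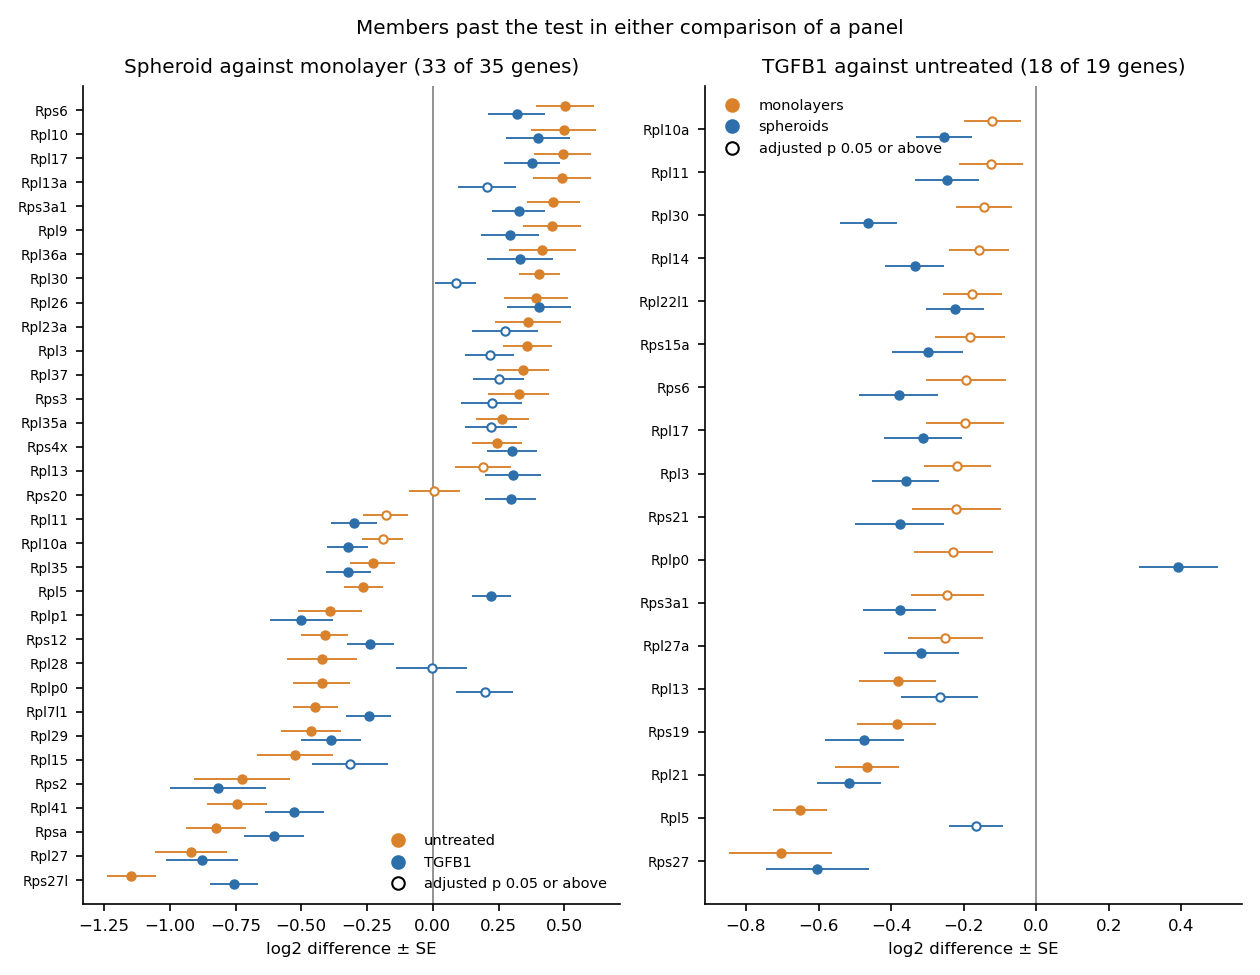
Log2 difference ± SE of members called in either spheroid comparison (left, 33 of the 35) and in either TGFB1 comparison (right, 18 of the 19); filled points have an adjusted p under 0.05. Without TGFB1, Rps27l, Rpl27, Rpsa and Rpl41 are lowest on the left, Rps27 and Rpl21 are low in both cultures on the right, and Rplp0 in spheroids is the one filled point above 0.

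With Snail no ribosomal protein gene passed the test. Of 81 members, limma called 0 (1.72% of all genes tested, either direction), with a smallest adjusted p of 0.313 and 3 at an unadjusted p under 0.05 (14.8% of all genes). The shares were 9.84%, 10.7% and 10.1% with the vector and 10.4%, 10.7% and 11.1% with Snail, which overlap. Differences were narrow, with a median of 0.06, an SD of 0.05 against 0.21 for all genes, and 76 of 81 above 0. The Snail libraries lay above all vector libraries in 7 members (8.64%; 9.7% of all genes), which were Rpl21, Rpl24, Rpl35a, Rpl36a, Rpl37a, Rps12 and Rps19. Rps27, 1 of the 3 members called lower with TGFB1 in both cultures, was 3921, 4253 and 4537 with the vector and 4384, 4969 and 4529 with Snail (log2 difference 0.13 ± 0.08 SE, adjusted p = 0.521). Rplp0, Rplp1, Rplp2 and Rpsa differed by 0.07, 0.07, 0.04 and 0.08.

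In the BRCA1 experiment the family varied more among the controls than among the libraries labelled ko. The share was 20.2%, 9.23% and 21.1% in the libraries labelled wt and 9.63%, 10.4% and 8.33% in those labelled ko, so wt library 2 lay among the ko libraries. Libraries wt 1 and wt 3 differed from the other 4 in more than this family. Other genes with transcripts of at most 1000 bases held 15.3% and 16.0% of their signal, against 8.05% to 8.80% in the other 4, and genes of over 4000 bases held 7.96% and 6.06% against 17.5% to 18.3%. The signal-weighted mean transcript length was 1772 and 1541 bases against 2502 to 2568. Whether transcript length, RNA quality or the cells set the members' values in these libraries was not tested.

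**Figure D5:**
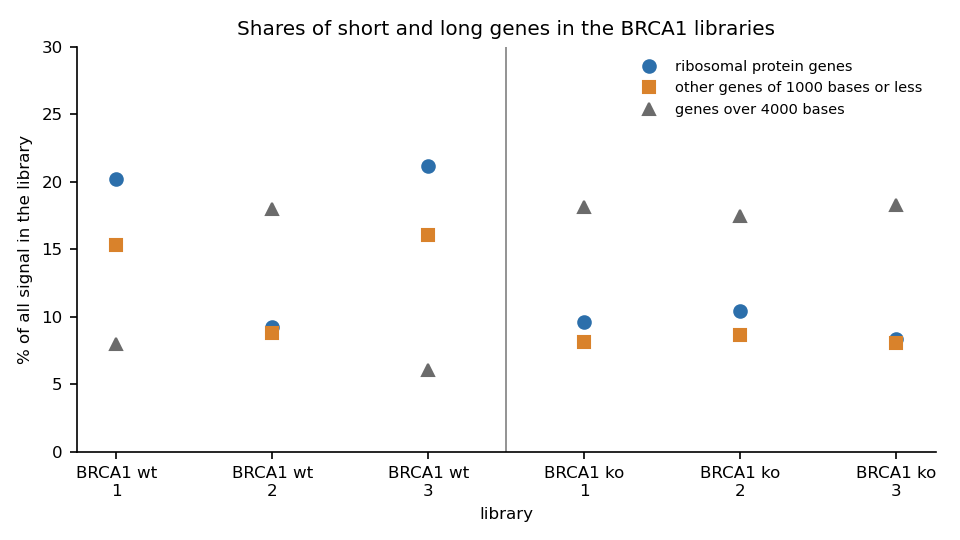
Share of the summed signal (y axis, percent) held by ribosomal protein genes, by other genes with transcripts of at most 1000 bases and by genes of over 4000 bases, in the 3 libraries labelled wt and the 3 labelled ko (x axis). In wt 1 and wt 3 members (20.2% and 21.1%) and other short genes are high and long genes are low, while wt 2 lies with the ko libraries.

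Against all 3 controls, 79 of 81 members had lower means in ko libraries, and 63 members were beyond 2-fold (30.1% of all genes). The median log2 difference of the 81 members was -1.26, against 0.17 for all genes. The median of 678 other genes with transcripts of at most 1000 bases was -0.81. Whether the members' difference is particular to them was not tested. With equal column sums the members' median was -0.72 against 0.63 for all genes, and 19 members were beyond 2-fold (38.3% of all genes). By the test 1 member fell (1.23%; 5.27% of all genes tested were lower) and 0 rose (9.04%), with 15 at an unadjusted p under 0.05 (41.3% of all genes). The libraries labelled ko lay below all controls in 13 members (16.0%; 18.3% of all genes). Rpl35a, a large subunit protein also mutated in Diamond-Blackfan anaemia, was 2187, 619 and 3505 in wt and 307, 313 and 274 in ko libraries (log2 difference -2.49 ± 0.61 SE, adjusted p = 0.0424), with no overlap. The call was lost without any 1 library other than wt 2. With its copies the difference of Rpl35a was -1.52 (adjusted p = 0.120). Rplp1 was 10503, 2599 and 16262 in wt and 2783, 3065 and 2529 in ko libraries (log2 difference -1.45 ± 0.76 SE, adjusted p = 0.178), and wt 2 fell within the ko range. Rps6 had the same shape (log2 difference -1.04, adjusted p = 0.159). Without wt 2 the count of lower members was 77 of 81 (25.6% of all genes).

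Without wt 1 and wt 3 the median of 80 members was 0.05, the share in ko libraries was 0.227 percentage points above that of wt 2, 1 member rose (3.1% of all genes) and 1 fell (1.93%). The one that fell was Rpl35a (log2 difference -1.05 ± 0.15 SE, adjusted p = 0.0414) and the one that rose was Rpl5 (1.05 ± 0.16 SE, adjusted p = 0.0443), both in their own row. With copies added Rpl35a was 3722, 1056 and 6125 in wt and 1015, 1088 and 918 in ko libraries, and Rpl5 2093, 1053 and 2966 against 1212, 1337 and 1036, so that wt 2 lay within the ko range for both genes. In the fit without wt 1 and wt 3 the lone control is assumed to vary like the ko libraries. The own row of Rpl5 was 74.4, 67.1 and 117 in wt and 157, 129 and 136 in ko libraries, above all controls, and its difference against all 3 was 0.74 ± 0.27 SE, adjusted p = 0.0880. That row held 7.01% of the sum of gene and copies, and with copies added the difference turned to -0.65 (adjusted p = 0.292).

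Other parts of the translation machinery were described from 13 gene lists. In untreated spheroids against monolayers, ribosomal proteins outside the naming rule had 0 of 4 that passed, where 27.6% of all genes were higher and 27.7% lower. Elongation factors had 1 of 9 higher, Eef1a1 (log2 difference 0.38), which brings aminoacyl-tRNA to the ribosome, and 2 lower, led by Eif5a2 (-1.65). Initiation factors had 5 of 30 higher and 11 lower, with the helicase paralogs Eif4a2 (log2 difference 1.52) and Eif4a1 (-0.59) at the ends. Other TOP mRNAs had 2 of 9 higher, led by Pfdn5 (log2 difference 0.60), and 5 lower, led by Hnrnpa1 (-0.62).

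Genes for building ribosomes were described in the same comparison, where 27.6% of all genes were higher and 27.7% lower. Proteins of the small nucleolar RNA particles, which guide rRNA modification, had 0 of 11 higher and 6 lower, led by Nhp2 (log2 difference -1.18). Pre-ribosome assembly factors had 10 of 83 higher, led by Sbds (log2 difference 0.79), which helps release a factor that keeps the subunits apart, and 23 lower, led by Rrp12 (-0.64). RNA polymerase I and its factors had 0 of 15 higher and 5 lower, led by Cd3eap (log2 difference -0.88), and ribosomal protein chaperones and importers 1 of 14 higher, Nap1l4 (0.38), and 4 lower, led by Bccip (-0.68). With TGFB1 in both cultures, 9 of 11 particle proteins and 22 of 83 assembly factors were lower in spheroids (26.5% of all genes), and with equal column sums 10 and 44 (36.3% of all genes).

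Regulators of the family passed the test in both directions. In untreated spheroids, with the same background as above, the mTORC1 list had 4 of 31 higher, led by Ddit4 (log2 difference 1.69), an inhibitor of mTORC1, and 10 lower, led by Lamtor1 (-1.25), which anchors mTORC1 activation at the lysosome. The MYC and MAX network had 4 of 10 higher, led by Myc (log2 difference 1.93), a known activator of ribosomal protein genes, and 2 lower, led by Mxd3 (-3.06). The list of p53 surveillance genes had 3 of 8 higher, led by Cdkn1a (log2 difference 1.15), and 4 lower, led by Phlda3 (-0.92), and ribosome rescue factors 2 of 12 higher, led by Zfp598 (0.48), and 0 lower. With TGFB1 in monolayers, where 9.12% of all genes were higher and 7.79% lower, the mTORC1 list had 1 of 31 higher and 5 lower (3 with equal column sums), led by Rragc (log2 difference -0.43), and other TOP mRNAs 0 of 9 higher and 1 lower, Tpt1 (-0.53). With TGFB1 in spheroids, where 18.8% of all genes were higher and 16.8% lower, other TOP mRNAs had 1 of 9 higher, Ybx1 (log2 difference 0.50), and 3 lower, led by Vim (-0.66), and with equal column sums 7 lower (27.8% of all genes). Under Snail the one gene of these lists to pass was Phlda3 (log2 difference 0.52), a p53 target.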

How the data were processed

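Poly(A) RNA was sequenced in 24 libraries, 8 groups of 3 set by the labels. Per the submitters' processing notes, kallisto 0.44.0, sleuth 0.30.0 and the mouse build GRCm38 were used. The authors deposited 1 table of signal per experiment, named as TPM, whose columns do not sum to 1000000, so the signal is TPM with a factor per library. The planned test for TPM was kept. For each gene the authors also deposited a p-value, a q-value and coefficients in natural log units. Counts were not used here, so depth and counting error are unknown. The 3 tables were normalized separately and were not compared.

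The test was limma 3.58.1 (R 4.3.3, lmFit and eBayes with trend), run per table on log2(signal + 1) over genes with a signal of at least 1 in at least 3 libraries: 13509, 12240 and 12775 genes, of which 82, 81 and 81 were members. A single fit covered the 12 libraries of the first experiment. A gene was called at a two-sided Benjamini-Hochberg adjusted p under 0.05 over all genes tested. Differences are on the scale of log2(signal + 1), and the added 1 understates changes of low genes. Groups do not overlap where every library of one lies above every library of the other.

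Copies were annotated GENCODE M21 genes with a transcript covering at least 80% of a member's coding sequence at 95% identity or more (blastn 2.17.0, 83 members). Gene identifiers matched that annotation for 98.2%. Start sites are from RefSeq, GRCm38.p6. Python 3.11.15, pandas 2.3.3, numpy 2.4.6 and matplotlib 3.10.9 were used, and the test was checked on simulated data. The members and gene lists were chosen with earlier results of these data known. Members were named when among the 4 largest called changes in each direction of a comparison or the 5 highest levels of a table, and always for Rps6, Rpsa, the P stalk and named paralogs with their parents. From each other list the called gene with the largest change in each direction was named. Other members were named after their values were seen. Alternatives were another pseudocount, no filter, equal column sums, a replicate block, separate fits, leaving out libraries and, chosen after seeing the data, adding copies and leaving out BRCA1 wt 1 and 3. Replicate numbers were not used to pair the samples in the main fit. Some genes are counted but not reported here by name.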

Additional observations from a re-analysis of the deposited data

Results flagged for a closer look

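The TGFB1 effect differed between cultures for 2 members by a direct test of the difference (limma, Benjamini-Hochberg adjusted over all genes). Culture and TGFB1 schedule cannot be told apart in it. For Rplp0, the base of the P stalk, the effect in spheroids minus that in monolayers was 0.62 ± 0.15 SE, adjusted p = 0.0207. It kept its call in 5 of the 12 fits that left out 1 library. For Rpl5 it was 0.49 ± 0.10 SE, adjusted p = 0.0109, with a call in 12 of 12, but -0.04 (adjusted p = 0.895) with its copies added.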

How the results depend on the processing

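Of 28 called differences, those among the 4 largest in each direction of a comparison, 22 kept their call in every fit that left out 1 library. In every other setting 14 of the 28 kept it. Over all calls, those fits kept 20 of 29 for untreated spheroids against monolayers and 3 of 5 for TGFB1 in monolayers. For TGFB1 in spheroids 8 of 17 were kept, and between cultures with TGFB1 13 of 25. For the interaction it was 1 of 2, and for BRCA1 0 of 1. Medians of the members' differences moved by less than the spread in 85 of 95 settings. The spread here is the SD between libraries, within the groups, of the median member value. For BRCA1, medians from -1.94 to -0.76 with 1 library left out all counted as within it. The count therefore does not show a stable median there. The share of all genes called also moved with the setting, and a count with no such share beside it is not a result about the members. For untreated spheroids against monolayers, 29 members rose with equal column sums (29.4% of all genes). With equal sums outside the members 29 rose, and in a fit of 6 libraries 26. For TGFB1 in monolayers, 2 fell with no filter, 3 with the replicate block and 29 in the 6-library fit. All genes lower were 14.7% in that 6-library fit and 7.79% in the main fit. For TGFB1 in spheroids, 0 rose with no filter, with either rescaling and in the 6-library fit, and 9, 61, 67 and 2 fell. All genes lower were 27.8% with equal column sums and 9.52% in the 6-library fit. For TGFB1 spheroids against TGFB1 monolayers, 5, 0, 0 and 2 rose in the same settings, and 23 fell with either rescaling. Of all genes 17.9% rose and 36.3% fell there with equal column sums. For the interaction, 1 was positive with no filter and 1 with copies, 0 with either rescaling, and 7 and 10 were negative. With equal column sums 14.2% of all genes were negative. With copies the interaction of Rpl5 reversed to -0.0432; the cause was not tested beyond that addition. For BRCA1, 0 members fell with no filter, with the replicate block or with copies, 2 and 1 rose with the 2 rescalings, and without wt 1 and wt 3, 1 rose and the share difference reversed to 0.227 points.

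Leaving out 1 library gave 9 (without untreated monolayer 2) to 14 higher and 11 to 14 lower for untreated spheroids, 3 to 4 lower for TGFB1 in monolayers, and 8 to 25 lower and 0 to 5 higher (5 without TGFB1 spheroid 1) for TGFB1 in spheroids. It gave 2 (without TGFB1 spheroid 3) to 30 higher (without TGFB1 spheroid 1) and 11 to 13 lower for TGFB1 spheroids against TGFB1 monolayers, 1 to 7 positive (7 without TGFB1 spheroid 1) and 0 to 1 negative for the interaction, and 0 to 77 lower for BRCA1. Beside these counts, all genes lower were 12.1% at the 8, 17% at the 25 and 25.6% at the 77. All genes higher were 24.5% at the 30. Rplp0 lost its call in TGFB1 spheroids without untreated spheroid 1 or 2 or TGFB1 spheroid 2. Same-numbered libraries did not deviate together in every pair of any comparison, and the replicate block changed the 2 counts given above and no other by over 1.5 times. The unknown depth limits what can be said of the lowest members. The labels of untreated monolayers 1 and 2 point to 1 earlier sample. Their values differ (r = 0.991 over all genes, against 0.992 and 0.993 for the other pairs of that group). This does not show whether they are separate samples. If they are not, every comparison with untreated monolayers, and the interaction, has fewer separate controls than its 3 libraries.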

Other observations

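Mitochondrial ribosomal proteins, which build the separate ribosome inside mitochondria, had 5 of 78 members higher and 49 lower in untreated spheroids than in monolayers (median -0.41 on the log2 scale), where 27.6% of all genes were higher and 27.7% lower. Mrpl18 was 52.9 ± 3.21 in spheroids and 111 ± 7.67 in monolayers (SD, n = 3; log2 difference -1.06 ± 0.08, SE, adjusted p = 1.32e-06) and Mrps6 26.7 ± 3.20 in spheroids and 15.1 ± 0.304 in monolayers (SD, n = 3; log2 difference 0.78 ± 0.24, SE, adjusted p = 0.0168). Between TGFB1 spheroids and TGFB1 monolayers, 5 were higher and 35 lower (25.3% and 26.5% of all genes), and 1 and 51 with equal column sums. TGFB1 gave 2 higher and 11 lower in monolayers (9.12% and 7.79%), and 7 lower with equal sums. In spheroids, TGFB1 gave 13 higher and 4 lower (18.8% and 16.8%), but 2 higher and 16 lower with equal column sums, so the direction depends on scale. With Snail, limma called 0 of 78 (1.72% of all genes in either direction). For BRCA1 it called 0 higher and 7 lower in libraries labelled ko (9.04% and 5.27%), and 1 lower with equal sums; wt 1 and wt 3 stand apart in that comparison.

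In the authors' deposited table for monolayers and spheroids, whose q-value covers 3 terms at once, 78 of 82 listed members had a q-value under 0.05, against 88.2% of 14491 genes. None of the 82 listed in the authors' deposited table for Snail did, against 3.83% of 14500 genes. In that for BRCA1 3 of 83 did, all lower (Rpl35a, Rpl6l and Rps23), against 21.9% of 15437 genes in either direction. In the fits described above, 39 members were called in no comparison. The share of all genes called in none was not counted.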
